A study of Homo sapiens with 2 samples.

Results

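ZEB1, ZEB2, SNAI1, SNAI2, TWIST1, CDH1, CDH2, VIM and TJP1, repressors of the epithelial state with the cadherins, vimentin and a junction scaffold, are 9 of the 19775 genes read on 2 Affymetrix human arrays. They have 20 of the 54675 probe sets. A probe set is a group of short probes for 1 stretch of a transcript, and every probe set that the platform annotation gives to only 1 of the genes was used. By the labels, 1 array held RNA of MKN28 given Sox2 by lentivirus under puromycin selection, and the other RNA of MKN28 as control. MKN28 is an established human gastric cancer line. MKN28 is known to be misidentified and to derive from MKN74, another gastric line. The arrays are called the Sox2 array and the control array, by their labels. The labels state neither what the control cells received nor whether the Sox2 cells are 1 clone. There was 1 array per group, so no difference below has a replicate error or a test, and each is a difference between these arrays. The genes were chosen with earlier results of these arrays known, the ZEB2 difference among them, so all values are a description. In RNA from a whole culture, fewer cells with a transcript and less of it per cell cannot be told apart. Probe sets differ in how well they bind, so ranks of intensity place a probe set among all others and do not order transcripts.

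Epithelial-mesenchymal transition (EMT) is the programme by which epithelial cells loosen their junctions and take on a mesenchymal form. ZEB1, ZEB2, SNAI1, SNAI2 and TWIST1 are transcription factors that drive it, and the ZEB and SNAI zinc finger proteins repress CDH1, the epithelial cadherin, by binding E-box sequences. CDH2, the neural cadherin, and VIM, the intermediate filament protein vimentin, are the usual markers of the mesenchymal state, and TJP1 (ZO-1) is the scaffold that ties tight junctions to actin. In gastric epithelium and its tumours, loss of CDH1 is a known feature of the diffuse type.

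The whole array limits how the values can be read. SOX2 itself read 172 in the Sox2 array and 123 in the control by its brightest probe set, so the target gene does not settle the labels. The other 3 SOX2 probe sets were dimmer, at 27.4 and 22.2 (a log2 difference of 0.31), 38.4 and 39.1 (-0.023) and 11.4 and 15.7 (-0.46). EPCAM, the epithelial adhesion molecule, read 4.96 and 6.32, at the 4.91st percentile of all probe sets and the lowest of 12 epithelial marker genes. The keratins of simple epithelium KRT8 and KRT18 read 50.2 and 44.6, and 70.1 and 88.5. The highest was CLDN4, a claudin, at 149 and 167, just under the 95th percentile. The median percentile of the 12 genes by brightest probe set was 76.0, against 68.3 over all genes, and none lay above the 95th percentile, where 9.73% of all genes did. The summed level of those 12 genes was 761.8 in the Sox2 array and 828.5 in the control array. The same sums were 444.1 and 447.4 for 8 gastric genes, 1625 and 1512 for 8 fibroblast genes and 371.1 and 376.8 for 7 leukocyte and endothelial genes. The fibroblast genes had 3 of 8 above the 95th percentile by brightest probe set, and these made up most of both fibroblast sums. They were COL1A1 at 557 in the Sox2 array and 576 in the control, COL3A1 at 418 and 374, and THY1 at 397 and 325. Their next brightest probe sets read far lower, at 87.58 and 87.97, 45.03 and 51.34, and 52.49 and 56.42 in that order. The other fibroblast genes lay between the 31.6th and 76.6th percentiles. The control probe sets of ACTB read 4935 and 3582 at the 5′ end but 103 and 91.1 at the 3′ end. Those of GAPDH read 1202 and 1451 at the 5′ end and 184 and 195 at the 3′ end. For ACTB and GAPDH the place of a probe set on the transcript thus went with very different levels in both arrays. Positions on the transcript were not available for the probe sets of other genes. EPCAM, KRT8 and KRT18 are genes that epithelial lines are known to express. Whether the intensities come from intact transcripts of the labelled line was not tested, so no level below is more than the reading of its probe set. The part of these patterns in the results below was not tested either.

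ZEB2 was the 1 member with a difference of at least 2-fold, so the 250 bases before its RefSeq start (GRCh38.p14) are shown, with those of TJP1 and VIM, which had the next largest differences among the genes past the filter on dim signal. Capitals mark matches on either strand to the E-box CACCTG, the site of ZEB and SNAI proteins, or to the SOX motifs ACAAAG and ACAATG. TJP1 has 4 listed starts, and the window with a match is given.
ZEB2 chr2:144520120-144520369 (- strand): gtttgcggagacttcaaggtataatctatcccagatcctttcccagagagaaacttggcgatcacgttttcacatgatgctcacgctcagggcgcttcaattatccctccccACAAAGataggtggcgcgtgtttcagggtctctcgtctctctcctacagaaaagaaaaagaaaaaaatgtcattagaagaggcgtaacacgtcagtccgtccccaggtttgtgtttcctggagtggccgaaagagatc
TJP1 chr15:29969050-29969299 (- strand): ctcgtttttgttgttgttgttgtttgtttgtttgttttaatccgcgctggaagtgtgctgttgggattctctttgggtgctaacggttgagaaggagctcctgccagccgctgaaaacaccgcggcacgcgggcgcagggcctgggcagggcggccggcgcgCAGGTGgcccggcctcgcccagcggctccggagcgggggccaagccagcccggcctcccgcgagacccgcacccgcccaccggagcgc
VIM chr10:17227991-17228240 (+ strand): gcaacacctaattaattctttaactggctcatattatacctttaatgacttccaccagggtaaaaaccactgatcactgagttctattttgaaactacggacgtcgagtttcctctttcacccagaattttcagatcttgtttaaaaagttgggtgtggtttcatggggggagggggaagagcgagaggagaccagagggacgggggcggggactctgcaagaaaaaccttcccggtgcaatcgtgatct
In the ZEB2 window a SOX motif begins 138 bases before the start, and no E-box was found. The TJP1 window has an E-box that begins 88 bases before the start, and the VIM window has neither. Of 35116 windows of the same length before listed starts, 17.5% hold the E-box and 21.2% a SOX motif. Of 7 ZEB1 windows, 2 hold an E-box and 0 a SOX motif, and both CDH2 windows hold neither. A match is a run of letters and not a measured site. CDH1, SNAI1, SNAI2 and TWIST1 were not shown.

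Of the 20 probe sets, 11 passed the filter, an intensity of at least 34.25 (the median of all values) in either array. Of these, 3 passed through 1 array only. By its brightest probe set a gene passed in 7 cases of 9, and SNAI2 and TWIST1 did not. The size rule of 2-fold was met by 1 of the 11 probe sets, where of all 22938 such probe sets 1.97% were that much higher in the Sox2 array and 0.523% that much lower. It was met by 1 of the 7 genes, where 2.05% of 14253 genes were higher and 0.645% lower. That contrast also chose the members, so nothing is read from the comparison. The median log2 difference of the 7 genes was 0.12, with 5 above 0, against -0.0032 over all genes, of which 49.6% lay above 0. That median is the value of ZEB1, which passed the filter through the Sox2 array only, and with the filter on the mean of both arrays it was 0.23 over 6 genes. By the brightest probe set 4 of the 9 members lay above the 95th percentile of level, where 57.2% of 1924 genes were above 0. No spread between replicates is available, and the spread between probe sets of 1 gene is called technical here. Taken from the 3471 genes for which exactly 2 probe sets passed, the robust SD of 1 probe set was 0.277 on the log2 scale. The robust SD of the differences over the 14253 genes past the filter was 0.283. Of the 20 probe sets of the members, 12 differed by less than 0.277, but 9 of the 20 lie under the filter. The share of all probe sets that differed by less was not counted, so nothing is read from the 12.

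**Figure D1:**
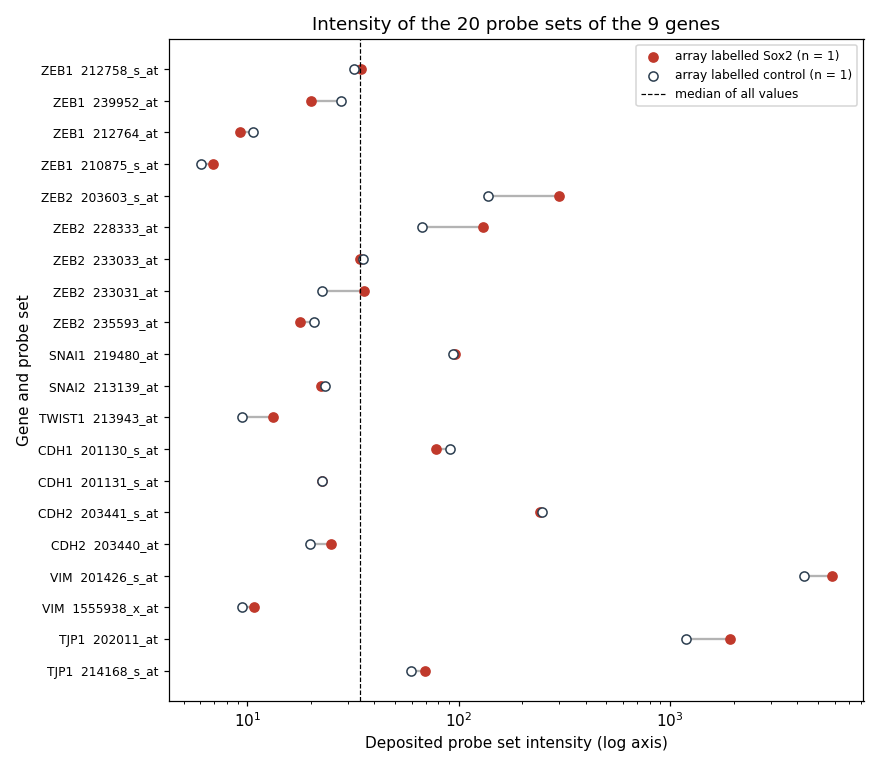
Deposited intensity (log axis) of the 20 probe sets in the Sox2 array (filled red) and the control array (open), 1 array each, grouped by gene and ordered by level within a gene. The dashed line is the median of all values, 34.25. The bright ZEB2 probe sets, TJP1 202011_at and VIM 201426_s_at have the filled point to the right, while those of SNAI1, SNAI2 and the brighter CDH2 probe set nearly coincide.

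Among the repressors, ZEB2 (also SIP1), a zinc finger protein, differed most. Its probe set 203603_s_at read 299 in the Sox2 array and 137 in the control array, 2.18-fold more (log2 difference 1.12). That probe set ranked 1357 of 54675 by intensity in the Sox2 array and 3355 in the control array. The difference ranked 188 among the 14253 genes, from the highest in the Sox2 array to the lowest. Genes of similar level varied widely too: the robust SD of the differences in the level bin of ZEB2 was 0.472, and of the 1924 genes above the 95th percentile 9.10% were at least 2-fold higher and 2.29% lower.

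The other ZEB2 probe sets did not all show it. Probe set 228333_at read 130 in the Sox2 array and 67.1 in the control array, a shift of 0.96 on the log2 scale. Probe set 233031_at read 35.6 and 22.7 (0.65) and passed the filter through the Sox2 array only. Probe set 233033_at read 34 and 35.4 (-0.056) and passed through the control array only. Probe set 235593_at, under the filter, read 17.7 and 20.8 (-0.23). So the brightest probe sets (percentiles 96.4 and 88.2) were higher in the Sox2 array by at least 1.94-fold, while of the 3 dimmer ones 1 was higher and the others lower. Their range of 1.35 was wider than that of 84.3% of the 706 genes with 5 probe sets. Averaging all 5 gave a log2 difference of 0.49, and averaging the 4 past the filter gave 0.67, both under 2-fold.

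ZEB1, the close relative of ZEB2 with the same repressor function, was read dimly by all 4 of its probe sets. The brightest, 212758_s_at, read 34.7 in the Sox2 array and 32.0 in the control array, a shift of 0.12 on the log2 scale, and passed the filter through the Sox2 array only. The next, 239952_at, read 20.1 and 27.9 (-0.47). The dimmest were 212764_at at 9.25 and 10.7 (-0.21) and 210875_s_at at 6.91 and 6.02 (0.20). With 2 probe sets above 0 and 2 below, they gave no direction, and their range of 0.67 was near the median of 0.71 for the 1393 genes with 4 probe sets. All 4 lay below the median level of all probe sets.

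SNAI1 (Snail), the zinc finger repressor that often acts first in EMT, had 1 probe set, 219480_at, which read 95.7 in the Sox2 array and 94.1 in the control array. The log2 difference of 0.025 was far below the technical SD, at a level above the median (percentile 88.5). SNAI2 (Slug), its relative known from the neural crest, read 22.3 and 23.4 by 213139_at, a shift of -0.075 on the log2 scale. TWIST1, a basic helix-loop-helix factor of mesoderm, read 13.2 and 9.43 by 213943_at, a shift of 0.49 on the log2 scale. The SNAI2 and TWIST1 values lay at percentiles 33.7 and 14.8, below the filter. For TWIST1 adding 16 to both intensities cut the difference to 0.20. Each of these 3 genes rests on 1 probe set, so probe sets could not be compared.

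Of the cadherins, neither differed by more than the technical SD at its brightest probe set. CDH1 read 78.6 in the Sox2 array and 91.3 in the control by 201130_s_at, a shift of -0.22 on the log2 scale. Its other probe set, 201131_s_at, lay below the filter at 22.6 in both arrays (a log2 difference of 0.0051). The CDH1 difference stayed below 0 under every alternative that gave a value except centring on the spike-ins, added after seeing the data, where it was 0.54. CDH2 read 243 and 248 by 203441_s_at, a shift of -0.028 on the log2 scale at percentile 97.2. Its dim probe set 203440_at read 24.9 and 19.8 (0.33). The CDH2 probe sets thus differed 11.1-fold in level and lay on opposite sides of 0. The rank of the brighter CDH2 probe set was 1694 in the Sox2 array and 1470 in the control array, and that of the brighter CDH1 probe set 8778 and 6756.

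VIM and TJP1 were the brightest members, and every probe set of either gene was higher in the Sox2 array. VIM read 5833 in the Sox2 array and 4288 in the control by 201426_s_at, rank 67 and rank 100 of all probe sets, 1.36-fold more (log2 difference 0.44). Its other probe set, 1555938_x_at, read 10.7 and 9.45 (0.18), 497-fold dimmer on average. Of 5015 genes with 2 probe sets, 99.9% had a smaller gap in level, and the median gap was 2.15-fold.

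TJP1 read 1919 in the Sox2 array and 1187 in the control by 202011_at, rank 224 and rank 306, 1.62-fold more (log2 difference 0.69). Its other probe set, 214168_s_at, read 69.6 and 59.6 (0.22). Both passed the filter. The VIM and TJP1 differences at the bright probe sets ranked 1414 and 697 among genes in the same order. The robust SD of the differences in their level bin was 0.69, about the size of the TJP1 difference and above that of VIM. Both genes differed in the same direction although VIM is a mesenchymal and TJP1 a junction gene.

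**Figure D2:**
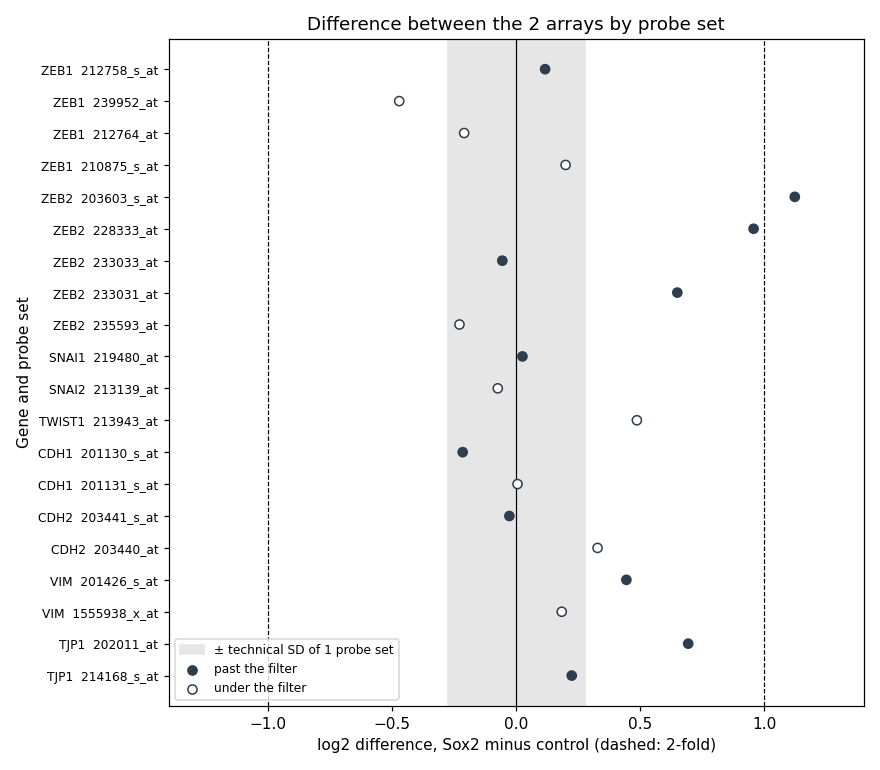
Log2 difference, Sox2 minus control, of each of the 20 probe sets, filled where past the filter and open where not. The grey band is plus or minus the technical SD of 0.277 and the dashed lines mark 2-fold. ZEB2 203603_s_at is the 1 point beyond 2-fold, and ZEB1, ZEB2 and both cadherins have points on either side of 0.

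Agreement between probe sets was counted in the same way for these genes and for all genes. Of the 6 members with several probe sets, VIM and TJP1 (33.3%) had all of them on 1 side of 0, against 34.2% of 10523 genes. By number of probe sets the share over all genes was 50.8% with 2, 14.9% with 4 and 9.49% with 5. The brightest probe set had the largest absolute difference in 4 of the 6 members (ZEB2, CDH1, VIM and TJP1), against 35.0% of all genes. That share was not split by number of probe sets, and CDH1, VIM and TJP1 have 2 each, so nothing is read from it. Across 5495 genes, which are not independent replicates, the differences of the brightest and second brightest probe sets past the filter correlated with a Pearson r of 0.296.

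**Figure D3:**
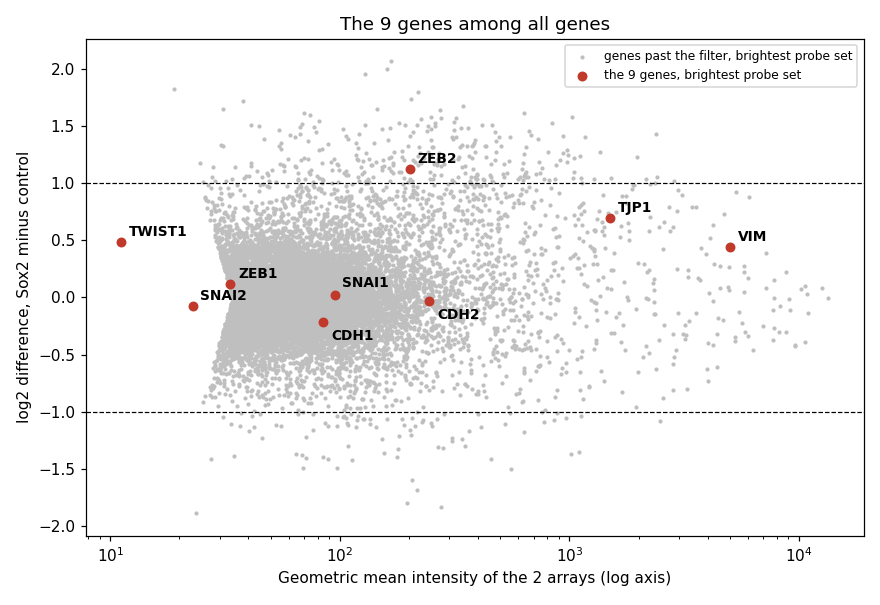
Log2 difference against the geometric mean intensity (log axis) of the 14253 genes past the filter, each by its brightest probe set (grey), with the 9 genes in red. SNAI2 and TWIST1 lie below the filter. ZEB2 lies above the dashed 2-fold line, and VIM and TJP1 lie at high intensity between 0 and 2-fold.

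Genes around these 9 were taken from 14 lists by function or cell type, chosen with earlier results known. Of 136 genes past the filter on these lists, 3 differed by at least 2-fold by their brightest probe sets, against 2.69% of all genes. All counts and medians of lists below are by the brightest probe set. Among other EMT transcription factors, 9 of 10 passed the filter, 1 was at least 2-fold higher and 0 lower, with a median log2 difference of 0.24 and 7 above 0. That gene was TCF4, a basic helix-loop-helix partner of E-box factors, at 1494 in the Sox2 array and 722 in the control array (2.07-fold). Its other 6 probe sets past the filter had log2 differences of 1.18, 0.97, 0.39, 0.50, 0.79 and 0.13, all on the same side. The TCF4 difference fell under 2-fold with lowess centring (0.92), with quantile normalization (0.83) and when its probe sets past the filter were averaged (0.71). The other 8 genes stayed under 2-fold. HMGA2, a chromatin protein that induces these factors, differed between its probe sets, and was named after its values were seen. Its brightest read 76.7 in the Sox2 array and 105 in the control array (-0.45), but another read 100.2 and 19.2, 5.22-fold more (2.38). The probe set with that larger difference passed the filter through the Sox2 array only. The third past the filter read 42.2 and 41.5.

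Factors that maintain epithelial identity did not differ by 2-fold in any of 11 cases, with a median of 0.027. EHF, an epithelial ETS factor, differed most at 30.9 in the Sox2 array and 50.5 in the control array and passed the filter through the control array only. KLF4, the brightest of the list, read 333 and 234, but 44.35 and 44.46 by its other probe set. Of 12 corepressors and chromatin partners, EED, a subunit of the Polycomb repressive complex, was at least 2-fold higher at 217 and 95.4 (2.28-fold), but its log2 difference was 0.68 with its dim probe set averaged in. CTBP1, the corepressor that ZEB proteins recruit, was the brightest at 1206 and 1111 (log2 difference 0.12). The list's median was -0.0084.

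Regulators of SNAI1 turnover had the highest median of the lists, 0.45, with 7 of 9 genes above 0 and none past 2-fold by the brightest probe set. That median is the value of FBXW11, named for this reason, which read 39.54 in the Sox2 array and 28.85 in the control array. FBXW11 passed the filter through the Sox2 array only, so nothing is read from the order of the list medians. CSNK2A1, a catalytic subunit of casein kinase 2, came closest at 291 in the Sox2 array and 148 in the control array (1.97-fold), though the log2 differences of further probe sets were 0.40 and -0.01. GSK3B, the kinase that marks SNAI1 for degradation, read 845 and 452 (1.87-fold), and FBXO11, a ubiquitin ligase subunit, 405 and 209 (1.94-fold); these 2 were named after their values were seen. One further GSK3B probe set was past 2-fold at 495 and 238 (2.08-fold), while the others past the filter had log2 differences of 0.0068 and 0.31. CSNK1A1, the brightest, read 1710 and 1171 (log2 difference 0.55), and its further probe sets past the filter ranged from -0.15 to 0.82. Bright genes tended to be higher in the Sox2 array: 57.2% of genes above the 95th percentile lay above 0, and 4 of the 11 genes of this list with a probe set were that bright.

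TGF-beta signalling, the best known inducer of these factors, had 16 genes past the filter, 0 at 2-fold by the brightest probe set and a median of 0.091. SMURF2, a ubiquitin ligase for the receptors, differed most at 99.5 and 53.8 (1.85-fold), and SKI, a SMAD corepressor, was the brightest at 236 and 171. SKIL, the relative of SKI, read 51.5 and 60.4 by its brightest probe set, but 35.6 and 16.2 (2.19-fold more) by another that passed through the Sox2 array only. The main ligand TGFB1 read 139 and 150. SKIL and TGFB1 were named after their values were seen.

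Of 11 genes of cadherin-catenin and nectin adhesion past the filter, 1 was at least 2-fold lower and 0 higher, with a median of 0.12. VCL (vinculin), which links junctions to actin, read 42.5 in the Sox2 array and 111 in the control array (2.60-fold lower), with no other probe set past the filter. The VCL difference was under 2-fold with centring on the spike-ins (-0.63, added after seeing the data) and with its dim probe set averaged in (-0.69). CTNNB1 (beta-catenin), the cytoplasmic partner of CDH1, was the brightest at 3029 and 1977 (log2 difference 0.62, with 0.93 by another probe set). None of 14 tight junction and polarity genes reached 2-fold, and their median was 0.037. RAB25, an epithelial GTPase read by 1 probe set, differed most at 45.1 and 77.1 (log2 difference -0.78). CLDN4 was the brightest at 149 and 167. None of these 14 was higher by as much as TJP1. None of them lay above the 95th percentile either, while TJP1 lay at percentile 99.5. The comparison is thus not matched in level, and nothing particular to TJP1 is read from it.

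None of 13 other cadherins reached 2-fold (median 0.019), with CDH10 at 26.8 and 39.6 as the largest, past the filter through the control array only, and CDH6 at 143 and 132 as the brightest. The other intermediate filament proteins likewise had 0 of 16 at 2-fold (median -0.055). LMNA, a nuclear lamin, had both the highest level and the largest difference at 507 and 320 (log2 difference 0.67). Its further probe sets past the filter had log2 differences of 0.39, 0.16 and 0.17. Of 15 mesenchymal matrix and cytoskeleton genes, 0 reached 2-fold, 5 lay above 0 and 10 below, with a median of -0.048. SPARC differed most at 30.1 and 43.9 and passed through the control array only, and COL1A1, a fibrillar collagen, was the brightest at 557 and 576. Fibroblast genes (6 of 8 shared with that list) had a median of 0.16, with FAP at 32.5 and 45.7 as the largest, again passing through the control array only. None of 6 gastric genes past the filter reached 2-fold (median -0.036, with GKN1 at 34.9 and 24.7, past the filter through the Sox2 array only), nor did any of 5 leukocyte and endothelial genes (median 0.04, with KDR at 36.5 and 50.0) or of 11 epithelial markers (median -0.045).

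**Figure D4:**
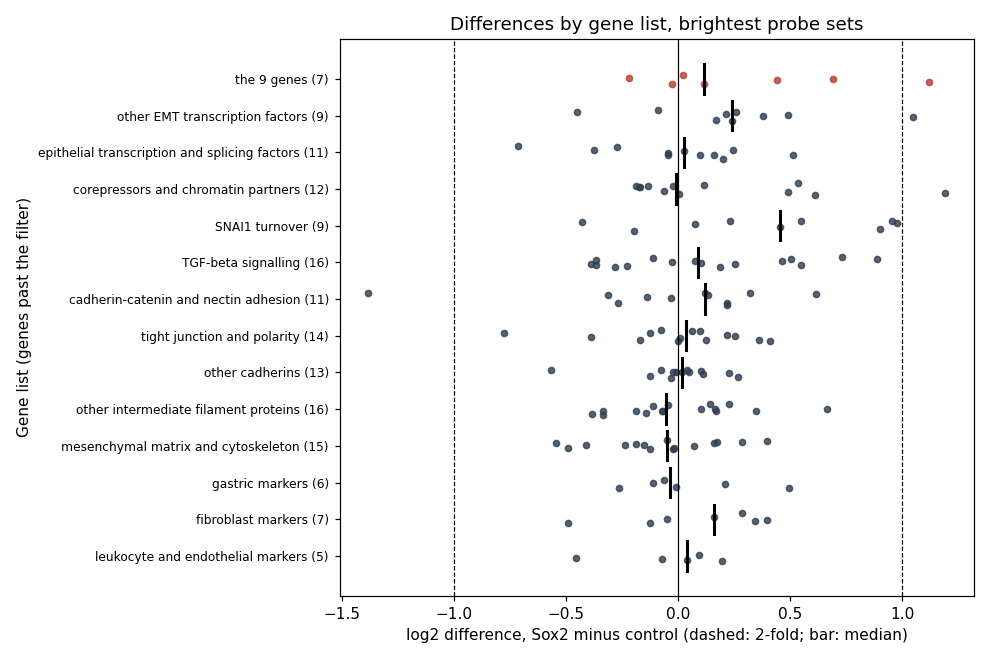
Log2 difference, Sox2 minus control, of the genes past the filter, by brightest probe set, for the 9 genes and each list except the epithelial markers. Each list has 1 point per gene, with the median as a bar and 2-fold as dashed lines. Points are spread vertically to be seen. The list medians lie between -0.055 and 0.45, and ZEB2, TCF4 and EED on the right and VCL on the left are the points beyond 2-fold.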

How the data were processed

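Per the labels, biotinylated cRNA of 1 sample labelled Sox2 and 1 labelled control was hybridised to Affymetrix arrays. The deposited values are linear intensities per probe set. RMA is the only tool in the submitters' processing notes, with no version or settings given in the sources used for this work. Scaling between the arrays is not stated, and the columns have medians of 34.25 and 34.26. Values were used as deposited, on the log2 scale, with no pseudocount.

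Probe sets were named through the platform annotation, updated by gene identifier (19735 of 19777 matched). Of 54675 probe sets, 41091 name 1 gene, 1801 several, 11721 none and 62 are control probe sets. Each gene was represented by its brightest probe set (highest mean of both log2 values). No test was possible. The named genes are all 9 members, and of each other list those past 2-fold (up to 4) or the 1 with the largest difference, and the brightest. The members and lists were chosen with earlier results of these data known. The size rule and centring were tested on simulated data. The simulated shift was the same for every probe set, spike-ins included, so it could not show which centring holds for these arrays. Promoters come from RefSeq (GRCh38.p14). The software was pandas 2.3.3, numpy 2.4.6, statsmodels 0.14.6 and matplotlib 3.10.9 under Python 3.11.15. The number of arrays limits the precision.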

Additional observations from a re-analysis of the deposited data

How the results depend on the processing

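No paired analysis was possible because there is 1 array per group. As reported, 1 member probe set, 1 member gene and 3 list genes differed by at least 2-fold, and the member median was 0.12. With probe sets whose names end in _x_at or _s_at (possible cross-hybridisation) left out, these became 0, 0, 1 and 0.69 (3 genes past the filter). At 1.5-fold they were 4 probe sets, 2 member genes and 13 list genes. The share over all genes was not counted for this or any other alternative, so nothing about the genes is read from these counts. Averaging all probe sets left 0 member and 0 list genes, and averaging those past the filter left 0 member genes. Taking the largest difference gave 6 list genes (EED, TCF4, VCL, HMGA2, GSK3B and SKIL). The HMGA2 and SKIL values in that count come from probe sets that passed the filter through the Sox2 array only. With those possibly cross-hybridising probe sets left out, EED and VCL had none past the filter. Centring on the 24 spike-in probe sets, which were all lower in the Sox2 array (median -0.75 on the log2 scale), was added after seeing the data. It shifts every difference up by 0.75 and gave 5 member probe sets, 3 member genes, 32 list genes and a member median of 0.87. The other filters, centrings and the pseudocount kept the counts within 1.5 times, while the member median was 0.23 with the stricter filter or that on the mean and 0.079 with the pseudocount. ZEB2 was above 0 in all 12 alternatives and past 2-fold in 9, with values from 0.49 to 1.87. Those 9 all read the same probe set, 203603_s_at, and the filters and the largest-difference rule return its value unchanged. The count of 9 is therefore no measure of robustness. The alternatives that used other ZEB2 probe sets gave 0.96, 0.67 and 0.49, all under 2-fold. TJP1 ranged from 0.46 to 1.44, VIM from 0.31 to 1.19, SNAI1 from 0.020 to 0.78, CDH1 from -0.22 to 0.54 and CDH2 from -0.18 to 0.72. ZEB1 ranged from -0.47 to 0.87, SNAI2 from -0.085 to 0.68 and TWIST1 from 0.20 to 1.24. The causes were not tested. Signal over background could not be called without probe-level data.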

Other observations

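Transcripts tied to the same genes but outside the lists were named after their values were seen. ZEB1-AS1, the divergent RNA at the ZEB1 start, read 7.35 in the Sox2 array and 9.67 in the control array, at percentile 10.0. MIR200CHG, the host transcript of members of the miR-200 family that target ZEB1 and ZEB2, read 111 and 121 by 1 probe set (log2 difference -0.12). MIR205HG, host of another microRNA that targets both, read 36.2 and 34.7, and a probe set annotated to MIR205 read 83.8 and 63.6 (log2 difference 0.40). None reached 2-fold, each rests on 1 probe set, and mature microRNAs were not measured.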
